A study of Mus musculus with 8 samples.

Results

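H3.3 K27M is a variant of histone H3.3 in which methionine takes the place of lysine 27. Mouse embryonic fibroblasts (MEFs) made to express it were compared here with the control MEFs they came from, at each of the 875 genes in the deposited table. All 4 libraries of the 2 groups were used, out of 8 in the series, with 2 libraries for K27M and 2 for control. The control cells were MEFs from an embryo whose *EED* gene is floxed, and K27M cells were the same cells transduced with a lentivirus for stable expression of H3.3 K27M. Transduced cells were selected with puromycin, and the paper does not say that control cells received a virus or the drug. Effects of K27M, of transduction and of selection therefore cannot be told apart here. The other 4 libraries were 2 from MEFs transduced with human EZHIP and 2 from an EED-null line, a single clone in which Cre had deleted *EED* from the floxed cells. All cells were grown in serum-containing medium. Nothing in the labels says that the 2 libraries of a group came from separate cultures, so p-values measure the spread between these libraries.

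Polycomb repressive complex 2 (PRC2) places methyl groups on lysine 27 of histone H3, and trimethylation there, H3K27me3, marks silent developmental genes. EED is a core subunit of PRC2 that binds H3K27me3. The K27M histone binds the active site of PRC2 and lowers H3K27me3 across the genome although normal H3 is still present. EZHIP is another inhibitor of PRC2. In fibroblasts, PRC2 targets include *Hox* genes and transcription factors of other lineages.

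The 875 genes were chosen by the authors for a difference of at least 2-fold between EZHIP and the same control libraries. The comparison of K27M with control is therefore not independent of that choice, and its counts say nothing of the rest of the transcriptome. *Eed*, *H3f3a* and *H3f3b* are not in the table, so neither the transgene nor the labels could be checked with them. A value is the number of reads estimated for a gene divided by 1 size factor for the library, called normalized expression below. It is not scaled by gene length, so levels are compared between libraries and not between genes. The control libraries held 306290 and 424561 reads on the listed genes and the K27M libraries 350472 and 400267. One read was worth between 0.738 and 1.03 units in these 4 libraries. The 2 K27M libraries differed by more than sampling noise, with a chi-square per gene of 3.65 against 1.57 for the control pair. Of 15 fibroblast markers 4 were listed, *Col3a1*, *Dcn*, *Fbn1* and *Fap*, and all of these were detected in every control and K27M library. None of 12 macrophage, 8 skeletal muscle or 6 adipocyte markers was in the table.

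More listed genes were higher than lower in K27M cells. With limma, 362 genes were called higher (41.4%) and 175 lower (20.0%), together 537 (61.4%). A call needed a Benjamini-Hochberg adjusted p below 0.05 and a difference of 2-fold or more on the log2(value + 1) scale. In each of the 537 genes, both K27M libraries lay on one side of both control libraries. The call rule favours such genes, so this is no separate support for the calls. The split depended on the scale of the libraries. Rescaling them on the listed genes moved log2 differences by about -0.46, or by less for genes near 0, and gave 304 higher and 243 lower. The factors came from these selected genes and draw the typical one towards no change. A more even split therefore follows from the method, and the rescaled values are not a truer scale. The smallest two-sided p that an exact permutation of 2 against 2 libraries allows is 0.333, and the calls therefore depend on limma's pooling of the spread over genes.

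The called genes are described here by their levels. They were sorted by their difference from these same control libraries, and a gene near 0 in control cells has little room to fall, so the levels of the rises and the falls are not compared. Genes called higher had a median control mean of 24.9 and a median K27M mean of 222, and their median log2 difference was 2.52. That median was 2.41 with the genes at 0 in both controls set at their bound. Genes called lower had a median control mean of 254 and a median K27M mean of 48.9, with a median log2 difference of -1.96. Of the rises 93 reached 16-fold and 31 reached 64-fold, and of the falls 11 and 2. The controls held at most 3 reads each for 78 (21.5%) of the genes called higher, and 34 of these 78 were at 0 in both.

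**Figure D1:**
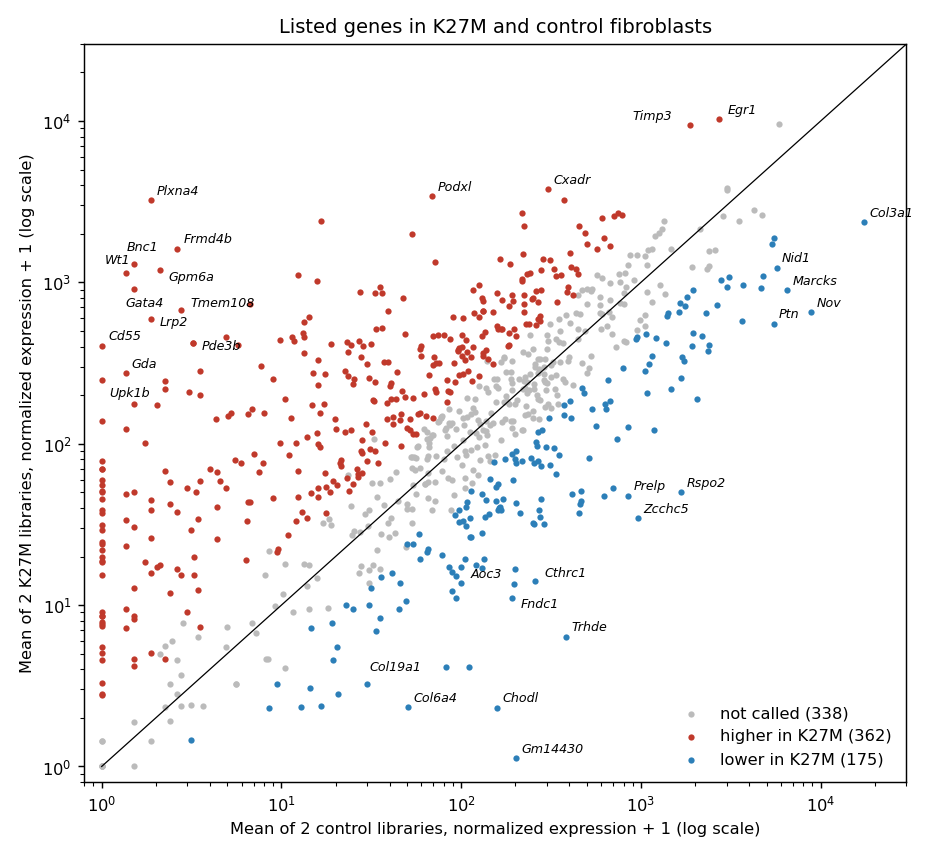
Mean normalized expression of the 875 listed genes in control (x axis) and K27M cells (y axis), both as value + 1 on log scales, n = 2 libraries each; each point is a gene, coloured by its call, and the line marks equal means. The 362 genes called higher reach from genes near 0 in control cells to *Egr1*, and the 175 called lower include *Col3a1*, the highest control mean in the table.

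The 12 largest rises were in *Plxna4*, *Bnc1*, *Wt1*, *Gpm6a*, *Gata4*, *Frmd4b*, *Cd55*, *Lrp2*, *Upk1b*, *Tmem108*, *Gda* and *Pde3b*. Each of them had at most 6 reads in a control library and at least 233 units in both K27M libraries. *Plxna4* encodes plexin A4, a receptor for semaphorins, and lies on the minus strand of mm9 at chr6:32094565-32538192. Its normalized expression was 1.03 and 0.738 in control cells and 2704 and 3760 in K27M cells. The difference was 10.73 on the log2 scale (standard error 0.22, adjusted p = 5.48e-07, limma). The control libraries held 1 read each, and the ratio of the groups was 3781 with an exact 95% counting interval of 1046 to 31231. This interval, like the others given here for low counts, covers counting error only. For genes this low in control cells the log2 difference also depends on the pseudocount of 1.

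Transcription factors formed part of this set. *Wt1*, a zinc-finger factor of kidney, gonad and mesothelium (chr2:104966686-105013773, plus strand), was at 0 and 0.738 in control cells and at 1013 and 1277 in K27M cells, a log2 difference of 9.75 (standard error 0.28, adjusted p = 1.28e-06, limma). The ratio was 2676, with a counting interval of 480 to 105728. *Bnc1*, which encodes the zinc-finger protein basonuclin, rose from 1.03 and 0 to 1185 and 1424, by 9.84 ± 0.32 (log2, standard error). *Gata4*, a regulator of heart and gut development, rose from 1.03 and 0 to 863 and 960, by 9.32 ± 0.32. In all 3 genes a single read came from the control pair.

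The other members were mostly membrane and signalling proteins. *Gpm6a*, a membrane glycoprotein, went from 0 and 2.21 to 1107 and 1275. *Frmd4b*, a FERM-domain scaffold, went from 1.03 and 2.21 to 1435 and 1804, which was 999-fold. *Cd55* protects cells from complement, and *Upk1b* is a uroplakin of urothelial membranes. Both were at 0 in both control libraries. *Cd55* was at 395 and 412 in K27M cells, at least 152-fold higher than a floor of 3 reads per library allows in control cells. *Upk1b* was at 233 and 260, at least 93.0-fold higher. *Lrp2*, the endocytic receptor megalin, rose from 1.03 and 0.738 to 524 and 664, and *Tmem108*, a transmembrane protein, from 2.05 and 1.48 to 559 and 778. *Gda*, guanine deaminase, went from 0 and 0.738 to 312 and 235. *Pde3b* encodes a phosphodiesterase of cyclic nucleotides and was at 0 and 4.43 in control and at 414 and 429 in K27M cells.

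K27M was also compared directly with the other lines, where 58.7% of all listed genes were called against EZHIP and 54.4% against EED-null cells. Of these 12 genes, 11 were higher in K27M than in EZHIP cells, against 32.6% of all listed genes, and 9 were higher than in EED-null cells, against 27.8%. These contrasts do not use the control libraries, but the 12 genes were picked for their K27M level, and the EZHIP libraries had a part in choosing the whole table. *Plxna4* was at 114 and 154 in EZHIP cells and at 83.2 and 84.3 in EED-null cells, so that K27M lay above them by 4.58 ± 0.22 and 5.23 ± 0.22 (log2, standard error). *Pde3b* differed from EZHIP by 0.11 ± 0.71 and was not called. *Gata4* exceeded EZHIP by 2.10 ± 0.32 and EED-null by 0.52 ± 0.32, and the second was not called.

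**Figure D2:**
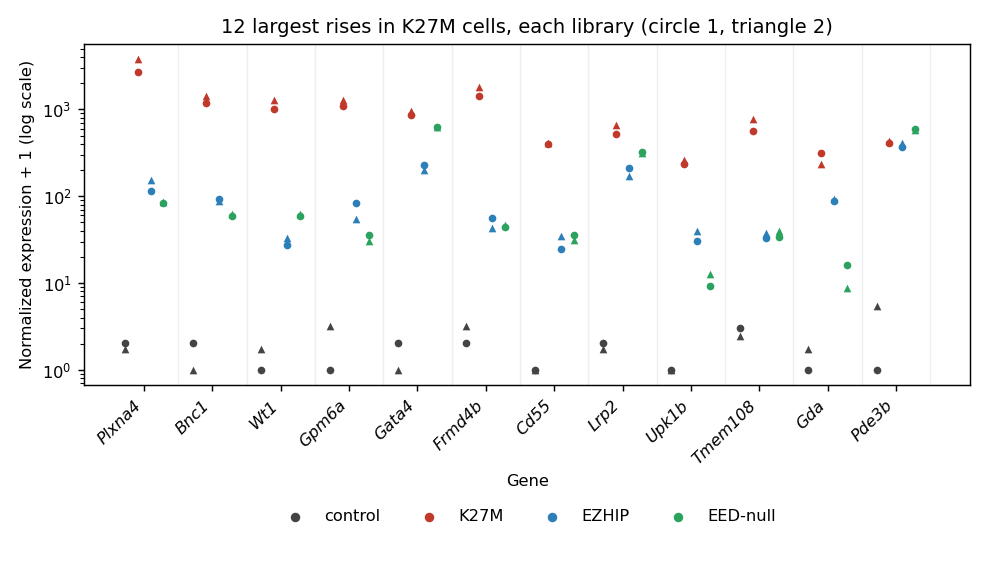
Normalized expression + 1 (y axis, log scale) of the 12 genes with the largest rise in K27M against control cells (x axis), 1 point per library, circle for library 1 and triangle for library 2, coloured by group. Control points lie at the bottom for every gene, and K27M points lie above those of EZHIP and EED-null cells for all genes but *Pde3b*.

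Genes known from mesothelium, the epithelial lining of body cavities, were prominent among the rises. This list of 16 genes was drawn up after the values were seen, so it has no test. Its 8 listed members were all called higher, against 41.4% of all listed genes. Their median log2 difference was 7.56 against 0.58 over all listed genes, or 6.86 with *Upk1b* at its bound. Beside *Wt1*, *Bnc1*, *Gpm6a* and *Upk1b* the members were *Upk3b*, *Podxl*, *Pkhd1l1* and *Msln*. *Upk3b*, another uroplakin (chr5:136514366-136521173, plus strand), was at 13.3 and 17.7 in control cells and at 2065 and 2700 in K27M cells, which was 153-fold higher. *Podxl* encodes podocalyxin, an anti-adhesive glycoprotein of podocytes and mesothelium. It rose from 66.7 and 68.6 to 2926 and 3885, by 5.62 ± 0.16 (log2, standard error). *Pkhd1l1*, a large membrane protein, rose from 13.3 and 16.2 to 931 and 1119. *Msln*, which encodes mesothelin, was the exception in level. It was already at 402 and 385 in control cells and rose to 823 and 1057, and with rescaled libraries it was no longer called (0.78 on the log2 scale).

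The summed level of the 8 genes was 497 and 491 in control, 10283 and 12997 in K27M, 3413 and 3195 in EZHIP and 1192 and 1174 in EED-null cells. Of the 8 genes, 7 were higher in K27M than in EZHIP cells, against 32.6% of all listed genes, and *Msln* was lower. All 8 were higher in K27M library 2 than in library 1, by 1.12 to 1.33 times, where the median over the 629 genes with a K27M mean of at least 50 was 1.06. In libraries made from many cells, a change in the number of cells of a type and a change in RNA per cell cannot be told apart, for these genes as for those that follow.

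Promoter sequences are shown for 3 of these genes because they differ in CpG content, which is high at many PRC2 targets. They are the 250 bases upstream of the RefSeq transcription start on GRCm38.p6, 5′ to 3′ along the gene, with each CG in capitals. *Bnc1* (minus strand of chr7:81992300-81992549) has 39 CG, *Upk3b* (plus strand of chr5:136038246-136038495) has 2 and *Gpm6a* (plus strand of chr8:54779184-54779433) has 1.
Bnc1: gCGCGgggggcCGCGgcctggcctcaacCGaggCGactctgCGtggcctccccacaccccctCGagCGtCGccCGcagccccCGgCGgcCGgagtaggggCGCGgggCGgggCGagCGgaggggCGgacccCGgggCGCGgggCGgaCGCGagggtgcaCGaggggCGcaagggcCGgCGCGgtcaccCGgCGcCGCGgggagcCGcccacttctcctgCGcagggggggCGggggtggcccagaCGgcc
Upk3b: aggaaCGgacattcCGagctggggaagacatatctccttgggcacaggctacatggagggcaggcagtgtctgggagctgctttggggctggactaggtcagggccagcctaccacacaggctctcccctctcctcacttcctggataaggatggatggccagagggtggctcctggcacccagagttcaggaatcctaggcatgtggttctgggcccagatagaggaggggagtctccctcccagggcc
Gpm6a: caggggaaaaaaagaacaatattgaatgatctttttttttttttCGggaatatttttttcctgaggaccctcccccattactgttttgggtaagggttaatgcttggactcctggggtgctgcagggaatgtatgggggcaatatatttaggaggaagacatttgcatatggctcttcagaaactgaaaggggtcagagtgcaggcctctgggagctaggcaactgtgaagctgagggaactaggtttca
The median of such windows over 27025 genes holds 6 CG, and 5.63% hold at least 30. The window of *Bnc1* is rich in CG, whereas those of *Upk3b* and *Gpm6a* hold less than the median. The values are sums over a gene, so which start was used in K27M cells was not measured. A comparison of CpG content over the called genes is void, since only 622 of the 875 genes (71.1%) had an entry.

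Epithelial junction and keratin genes, also listed after the values were seen, were called higher in 11 of 13, against 41.4% of all listed genes. *Pkp1* was called lower and *Cldn12* was not called, and the median log2 difference was 3.71 (3.32 with bounds). *Dsp*, the desmosomal plaque protein desmoplakin, went from 0 and 4.43 to 378 and 461. *Celsr1*, a cadherin of planar cell polarity, went from 10.3 and 7.38 to 372 and 504, and *Shroom3*, which drives apical constriction, from 212 and 233 to 2031 and 2433. Of 7 epithelial markers 2 were listed and both rose. *Epcam* was at 6.16 and 3.69 in control and 68.6 and 81.3 in K27M cells, and *Krt14* was at 0 in both control libraries and at 40.8 and 59.4 in K27M cells. *Pkp1*, another desmosomal protein, fell from 22.6 and 14.0 to 1.85 and 5.25. The part of other cell types in these rises was not tested. *Kdr*, the only listed one of 9 endothelial markers, rose from 9.24 and 9.60 to 157 and 222.

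In absolute level the largest rises were in *Timp3*, *Egr1*, *Cxadr*, *Podxl* and *Plxna4*. *Timp3* encodes an inhibitor of metalloproteinases that is bound to the matrix, and it was at 1866 and 1881 in control and at 8835 and 9943 in K27M cells. *Egr1*, an immediate early transcription factor, rose from 2725 and 2718 to 9813 and 10635. *Cxadr*, a tight-junction protein that serves as a virus receptor, rose from 297 and 308 to 3627 and 3942. The fold differences were 5.01, 3.76 and 12.5, and in no case did the groups overlap. *Cxadr* did not differ from EED-null cells by the call rule (-0.08 on the log2 scale).

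Of the 8 listed *Hox* genes 5 rose (62.5%, against 41.4% of all listed genes) and 2 fell (25%, against 20.0%). *Hox* genes encode the homeodomain factors that set position along the body and limb axes. The rises were in genes of the posterior groups, *Hoxd13*, *Hoxb13*, *Hoxd10*, *Hoxc13* and *Hoxa11*. *Hoxd13* (chr2:74506367-74509656, plus strand) was at 0 in both control libraries and at 126 and 149 in K27M cells, at least 51.9-fold higher. *Hoxd10* was at 0 and rose to 66.8 and 70.8, at least 26.0-fold. *Hoxb13* had 1.03 and 1.48 in control and 213 and 219 in K27M cells. *Hoxc13* rose from 5.13 and 1.48 to 140 and 144. *Hoxa5* fell from 198 and 198 to 69.6 and 89.2, and *Hoxc8* from 43.1 and 62.7 to 20.4 and 25.4. The call of *Hoxc8* was lost with a replicate block and without control 2, either K27M library or either EED-null library. *Hoxb9*, at 132 and 142 in control and 234 and 207 in K27M cells, was not called. The median log2 difference of the 8 was 4.64, or 4.39 with bounds.

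The start of *Hoxd13* (plus strand of chr2:74667975-74668224, GRCm38.p6) is shown as an example of a CpG-rich promoter at 0 in control cells, with each of its 31 CG in capitals.
Hoxd13: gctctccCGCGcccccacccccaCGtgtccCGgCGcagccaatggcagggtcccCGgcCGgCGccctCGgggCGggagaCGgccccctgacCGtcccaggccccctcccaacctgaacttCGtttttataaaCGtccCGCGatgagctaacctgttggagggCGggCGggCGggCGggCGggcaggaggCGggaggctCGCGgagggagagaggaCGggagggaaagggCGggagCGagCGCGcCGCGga
None of the 8 *Hox* genes was higher in K27M than in EED-null cells and 4 were lower, against 26.6% of all listed genes. *Hoxd13* was at 658 and 658 in EED-null cells, 2.26 ± 0.13 above K27M on the log2 scale.

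Outside the *Hox* genes, 20 of 43 developmental transcription factors rose (46.5%) and 6 fell (14.0%), near the 41.4% and 20.0% of all listed genes, and their median of 0.58 was that of all listed genes. Beside *Wt1* and *Gata4*, the largest rises were in *Zic2*, from 0 and 0.738 to 122 and 123, and in *Vax2*, from 0 and 0 to 76.9 and 77.8. *Zic2* and *Vax2* are regulators of forebrain and eye development. *Isl1*, a LIM-homeodomain factor of motor neurons and heart, was at 0 in control and at 44.5 and 54.2 in K27M cells. The factors that fell included *Ebf1*, from 257 and 281 to 34.3 and 41.1, *Ebf3*, from 678 and 668 to 173 and 191, and *Alx4*, a factor of limb and skull mesenchyme, from 1201 and 1104 to 319 and 375. Of the 43 factors, 25 were lower in K27M than in EZHIP cells and 28 lower than in EED-null cells, against 26.2% and 26.6% of all listed genes. *Sox2*, a factor of neural stem cells and the only listed one of 9 neural and glial markers, was at 0 in all control and K27M libraries. It was at 166 and 137 in EZHIP cells and at 245 and 270 in EED-null cells. The cartilage and bone markers *Sox9* and *Alpl* were not called, with 26.9 and 25.4 and with 30.1 and 37.6 in K27M cells.

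Most interferon-response genes that were called rose in K27M cells. These genes are switched on by type I interferon through a promoter element, the interferon-stimulated response element, and encode antiviral sensors, nucleases and GTPases. Of 49 listed members 26 were called higher (53.1%, against 41.4% of all listed genes), 1 was called lower (2.04%, against 20.0%) and 22 were not called. The median log2 difference was 1.15. With rescaled libraries 19 were called higher and the median was 0.69. In EZHIP and EED-null cells the medians against the same controls were -1.53 and -2.05. K27M was above EZHIP in 48 of the 49 and above EED-null in 47, against 32.6% and 27.8% of all listed genes. These contrasts leave out the control libraries, but the EZHIP values had chosen these genes for the table. The counts are therefore not independent of that choice. Summed over the list, expression was 27769 and 27662 in control, 56090 and 59116 in K27M, 10254 and 10200 in EZHIP and 9240 and 9402 in EED-null cells.

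Among the effectors, *Oas2*, which makes the activator of an antiviral RNase, was at 210 and 229 in control and at 1411 and 1606 in K27M cells, a log2 difference of 2.77 (standard error 0.27, adjusted p = 0.000143, limma). It was at 39.1 and 37.6 in EZHIP cells and at 2.77 and 5.81 in EED-null cells. *Ddx60*, a helicase of antiviral sensing, rose from 117 and 145 to 762 and 765. *Slfn2*, a member of the schlafen family, rose from 37.6 and 42.1 to 259 and 217, and *Oasl1* from 130 and 104 to 583 and 707. *Ifit3*, which acts in the binding of viral RNA, rose from 629 and 587 to 2561 and 2464, and *Rsad2*, the antiviral enzyme viperin, from 239 and 244 to 1093 and 1200. The regulators *Irf7* and *Usp18* were 4.82-fold and 4.46-fold higher. *Stat2*, the signal transducer of the pathway, was at 1355 and 1346 in control and 2313 and 2482 in K27M cells, under the 2-fold limit. *Ifitm1* was the member called lower, at 21.6 and 26.6 in control and 4.64 and 12.2 in K27M cells, and it lost its call without K27M library 1. Members of the Oas, Gbp, H2-Q and Tgtp families have close copies that can draw each other's reads, and single values of these genes are uncertain.

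The promoters of 3 interferon-response genes are shown because the genes moved together and carry matches to the core of the response element, searched as GAAANNGAAA on both strands. The windows are the 250 bases upstream of the RefSeq start on GRCm38.p6, with each match in capitals. *Ifit3* (plus strand of chr19:34583279-34583528) and *Ddx60* (plus strand of chr8:61927837-61928086) hold 2 matches each, and *Rsad2* (minus strand of chr12:26456453-26456702) holds 1.
Ifit3: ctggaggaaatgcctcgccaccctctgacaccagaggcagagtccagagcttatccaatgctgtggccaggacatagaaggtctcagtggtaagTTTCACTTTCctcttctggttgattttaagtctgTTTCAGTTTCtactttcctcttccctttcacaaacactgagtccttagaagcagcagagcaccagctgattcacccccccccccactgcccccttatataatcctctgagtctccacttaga
Ddx60: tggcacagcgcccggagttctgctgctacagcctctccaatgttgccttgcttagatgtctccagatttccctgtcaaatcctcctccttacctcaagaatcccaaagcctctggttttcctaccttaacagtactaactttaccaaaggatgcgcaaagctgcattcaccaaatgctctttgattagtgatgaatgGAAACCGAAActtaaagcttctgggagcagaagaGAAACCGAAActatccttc
Rsad2: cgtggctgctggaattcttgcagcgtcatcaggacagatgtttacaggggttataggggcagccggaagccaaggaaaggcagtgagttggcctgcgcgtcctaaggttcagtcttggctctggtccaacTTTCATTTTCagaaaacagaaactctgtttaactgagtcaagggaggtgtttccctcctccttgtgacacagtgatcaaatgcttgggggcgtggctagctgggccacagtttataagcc
Of the 49 listed interferon-response genes, 33 had a RefSeq entry and 16 had none. Of the 33, 16 had a match in the window from 250 bases upstream to 50 downstream. Among 27025 genes 3.49% had one, but a comparison is void with so many members lacking an entry. The genes are also known for responding through this element. A match describes the letters and is no measure of binding.

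Immediate early genes and feedback regulators of ERK signalling rose together. The former respond within minutes to growth signals, and the dual-specificity phosphatases restrain the kinases that carry these signals. In a list of 38 genes drawn up after the values were seen, 17 were in the table. Of these, 15 were called higher and none lower, against 41.4% and 20.0% of all listed genes. *Dusp1* and *Zfp36* were not called. The median log2 difference was 1.70, and with rescaled libraries 11 were called higher. Against the same controls the medians were 1.58 in EZHIP and 1.32 in EED-null cells. Over all listed genes they were 1.16 and 0.40. The lines share their controls and the EZHIP values chose the table, so these medians are no independent sign of a shared rise. K27M was above EZHIP in 3 of the 17 and below it in 2, where the shares of all listed genes were 32.6% and 26.2%. It was above EED-null in 6, against 27.8% of all listed genes. *Fos* rose from 172 and 202 to 1231 and 1353, *Fosb* from 31.8 and 32.5 to 208 and 275, and *Jun* from 732 and 752 to 2675 and 2741. These 3 are subunits of the factor AP-1. *Dusp4* rose from 10.3 and 10.3 to 137 and 148, and *Dusp6* from 94.4 and 82.7 to 557 and 664. *Etv4*, an ETS factor downstream of FGF signals, rose from 13.3 and 12.5 to 109 and 110. *Dusp1* was at 249 and 250 in control and 377 and 396 in K27M cells.

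**Figure D3:**
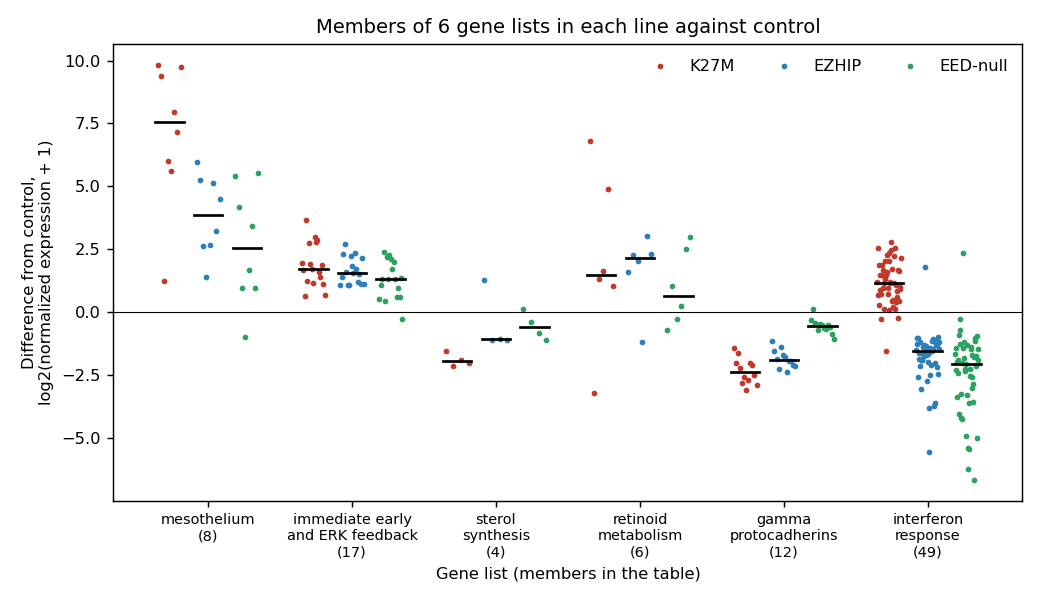
Difference from control in log2(normalized expression + 1) (y axis) for the listed members of 6 gene lists (x axis, number of members in brackets) in K27M, EZHIP and EED-null cells; each point is a gene, from means of 2 libraries, and bars mark medians. For K27M cells the medians are 7.56 for the mesothelium list and 1.15 for the interferon list; all 3 lines share the control libraries, and the other 5 lists were drawn up after the K27M values were seen.

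Of 18 listed genes for FGF and other growth factors and their receptors 8 rose (44.4%) and 4 fell (22.2%), close to the 41.4% and 20.0% of all listed genes. *Flt4* and *Kdr*, receptors for vascular endothelial growth factors, were 14.6-fold and 20.1-fold higher, and *Flt4* reached 337 and 463 from 27.7 and 27.3. *Areg*, the EGF-receptor ligand amphiregulin, was at 1.03 and 0.738 in control and 22.3 and 28.0 in K27M cells. Its call was lost without control 2 or either K27M library and with a pseudocount of 0.1. The falls were large in level. *Nov*, a secreted matricellular protein of the CCN family, fell from 8809 and 8885 to 670 and 629, which was 13.6-fold, and *Ptn*, the heparin-binding factor pleiotrophin, from 5518 and 5420 to 621 and 484. *Igfbp5*, which binds insulin-like growth factors, fell 3.81-fold and *Gdnf* 4.70-fold.

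In the Wnt list, 8 of 18 genes rose (44.4%) and 3 fell (16.7%), again close to the shares over all listed genes, and with rescaled libraries 5 rose. The R-spondins are secreted proteins that raise Wnt signalling by keeping its receptors at the cell surface, and they moved in opposite directions. *Rspo2* (chr15:42852357-43002364, minus strand) fell from 1629 and 1718 to 48.2 and 49.6, a log2 difference of -5.07 (standard error 0.15, adjusted p = 1.28e-06, limma). *Rspo1* rose from 1.03 and 0 to 156 and 192, while *Rspo3* fell from 105 and 120 to 51.9 and 48.1. *Sfrp1*, a secreted Wnt inhibitor, rose from 31.8 and 19.9 to 399 and 467 but stayed below EZHIP cells by 2.76 ± 0.22 (log2). *Fzd8*, a Wnt receptor, fell from 263 and 289 to 48.2 and 41.1. *Axin2* and *Lef1*, targets of the pathway, were 2.66-fold and 6.34-fold higher.

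In the TGF-beta and BMP list, 5 of 11 genes rose (45.5%, against 41.4% of all listed genes) and none was called lower, against 20.0%. The rises included the secreted antagonists *Nog*, from 5.13 and 5.90 to 161 and 141, and *Fst*, from 17.5 and 15.5 to 272 and 270. The ligands *Bmp7* and *Inhbb* rose from 0 and 2.21 to 18.5 and 14.9 and from 18.5 and 18.5 to 60.3 and 55.9. In the Hedgehog and Notch list 2 of 11 rose (18.2%, against 41.4%) and 4 fell (36.4%, against 20.0%), or 2 and 7 with rescaled libraries. The Notch ligand *Jag2* rose from 7.19 and 8.86 to 227 and 272, whereas its relative *Jag1* fell from 1498 and 1428 to 211 and 225. The Notch target genes *Hey1* and *Heyl* fell, from 301 and 249 to 39.9 and 28.0 and from 193 and 206 to 14.8 and 16.6. *Hhip*, which binds and restrains Hedgehog ligands, rose from 2.05 and 2.21 to 28.8 and 28.0.

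Axon guidance genes, whose products steer growing axons and other migrating cells, fell in 9 of 16 (56.3%, against 20.0% of all listed genes) and rose in 4 (25%, against 41.4%). *Unc5c*, a netrin receptor, fell from 1160 and 1212 to 125 and 116, and the Slit receptors *Robo1* and *Robo2* fell 6.69-fold and 5.81-fold. Their ligand *Slit3* rose from 50.3 and 53.9 to 1610 and 2354. *Sema3e*, a secreted semaphorin, rose from 74.9 and 66.4 to 1308 and 1365. The ephrin receptors *Epha3*, *Epha4* and *Epha7* were each lower by 2.89-fold to 4.40-fold.

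Among 13 genes for chemokines, cytokines and complement 7 rose (53.8%, against 41.4% of all listed genes), and none was called lower with the deposited scale (2 with rescaled libraries). *Cxcl14*, a chemokine of epithelia, rose from 10.3 and 12.5 to 1180 and 1050, by 6.49 ± 0.13 (log2). *Saa3*, an acute-phase protein, was at 0 in both control libraries and at 74.2 and 63.8 in K27M cells, at least 26.1-fold higher. *Lif* rose 5.80-fold and *Tnfsf15* 6.15-fold. *Ptgs2*, the inducible cyclooxygenase, rose from 74.9 and 67.2 to 339 and 296.

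**Figure D4:**
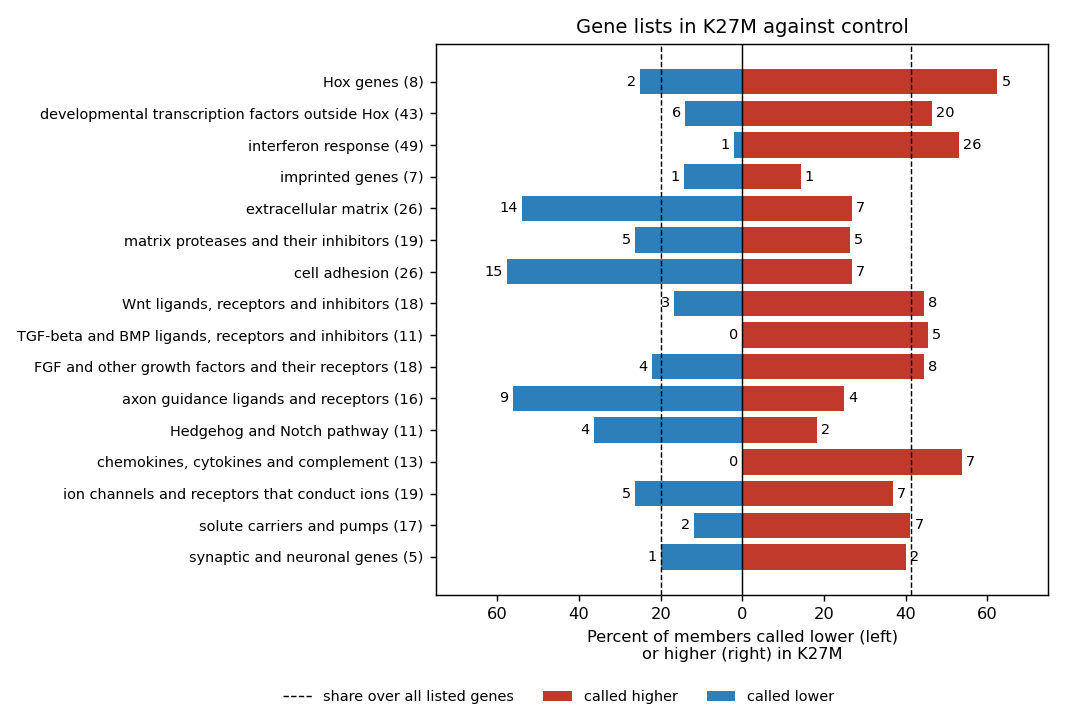
Percent of the listed members called lower (bars to the left) or higher (to the right) in K27M than in control cells, for gene lists with at least 5 members in the table, leaving out the lists drawn up after the values were seen; numbers of genes stand at the bars and list sizes in brackets, and dashed lines mark the shares over all 875 genes, 20.0% lower and 41.4% higher. Of the lists plotted, extracellular matrix, cell adhesion and axon guidance reach furthest to the left, and interferon, chemokine and *Hox* furthest to the right. Most cell adhesion genes called lower are gamma protocadherins, which share a gene cluster and are not separate measurements.

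Extracellular matrix genes fell in 14 of 26 (53.8%, against 20.0% of all listed genes) and rose in 7 (26.9%, against 41.4%), with a median of -1.08 against 0.58. *Col3a1*, the chain of type III collagen of soft connective tissue (chr1:45368383-45406551, plus strand), showed the largest fall in level in the table. It was at 17665 and 17245 in control and at 2206 and 2517 in K27M cells, a log2 difference of -2.89 (standard error 0.11, adjusted p = 3.63e-06, limma). *Col11a1*, a fibrillar collagen, fell from 2078 and 2025 to 185 and 191. *Col6a4* and *Col19a1* were among the largest falls, from 52.4 and 47.2 to 0.927 and 1.75 and from 85.2 and 76.8 to 2.78 and 3.50. *Prelp*, a leucine-rich proteoglycan, fell from 857 and 836 to 37.1 and 55.9. *Nid1*, a basement-membrane protein that links laminin to collagen IV, fell from 5700 and 5677 to 1130 and 1329, and the laminin chain *Lama2* from 1870 and 1975 to 390 and 418.

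The matrix did not fall as a whole. *Dcn* encodes decorin, a proteoglycan that binds collagen fibrils, and it rose from 364 and 380 to 3192 and 3255, by 3.11 ± 0.17 (log2). It was at 129 and 179 in EZHIP and at 69.3 and 73.6 in EED-null cells. *Prg4*, the joint lubricant lubricin, rose from 12.3 and 17.8 to 251 and 206. *Fbn1*, the fibrillin of microfibrils, was at 4760 and 4715 in control and 2471 and 2723 in K27M cells. It was not called on the deposited scale and was called lower with rescaled libraries. *Fap*, a serine protease of activated fibroblasts, was not called, with 82.1 and 94.5 against 162 and 104.

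Among matrix proteases and their inhibitors, 5 of 19 rose and 5 fell (26.3% each, against 41.4% and 20.0% of all listed genes). The matrix metalloproteinases *Mmp3* and *Mmp13*, which degrade matrix proteins and collagens, were at 0 in both control libraries. In K27M cells *Mmp3* was at 62.1 and 54.2, at least 22.0-fold higher, and *Mmp13* was at 34.3 and 38.5, at least 13.7-fold higher. Both stayed below EZHIP cells, *Mmp13* by 4.89 ± 0.11 (log2). *Adam23* fell from 446 and 477 to 42.7 and 43.7 and *Adamts12*, a secreted protease, from 263 and 236 to 29.7 and 33.2.

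On the log2 scale, 11 of the largest falls were in *Gm14430*, *Chodl*, *Trhde*, *Rspo2*, *Zcchc5*, *Col6a4*, *Col19a1*, *Cthrc1*, *Prelp*, *Fndc1* and *Aoc3*. The predicted gene *Gm14430* has near-identical copies that can draw its reads, and its fall from 266 and 136 to 0.241 and 0 is uncertain for that reason. *Chodl* encodes chondrolectin, a membrane lectin, and lies at chr16:78931193-78951978 on the plus strand. It was at 148 and 168 in control and at 0 and 2.62 in K27M cells, a ratio of 118 with a counting interval of 40.1 to 575. In EZHIP cells it was at 1148 and 1314, above both, so that K27M lay 9.34 ± 0.55 below EZHIP (log2).

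*Trhde*, an ectopeptidase that inactivates thyrotropin-releasing hormone, fell from 366 and 395 to 4.64 and 6.12, by 5.91 on the log2 scale. *Zcchc5*, a gene derived from a retrotransposon, fell from 976 and 951 to 27.8 and 39.3. *Cthrc1*, a secreted protein of collagen-producing cells, fell from 280 and 235 to 17.6 and 8.74, and *Fndc1*, which has fibronectin-type domains, from 188 and 192 to 13.0 and 6.99. *Aoc3*, a cell-surface amine oxidase, fell from 195 and 198 to 11.1 and 14.0, and its call was lost with a pseudocount of 0.1. Of these 11 genes, 8 were lower in K27M than in EZHIP cells, against 26.2% of all listed genes, and 6 were lower than in EED-null cells, against 26.6%. As with the rises, the genes were picked for their K27M level and the EZHIP libraries had a part in choosing the table. These counts are therefore no independent support. *Cthrc1* was higher than in EZHIP cells, and *Zcchc5*, *Aoc3* and *Prelp* were higher than in EED-null cells. *Zcchc5*, at 2.77 and 0 in EED-null cells, showed the widest gap of these 3, 4.13 ± 0.58 (log2).

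**Figure D5:**
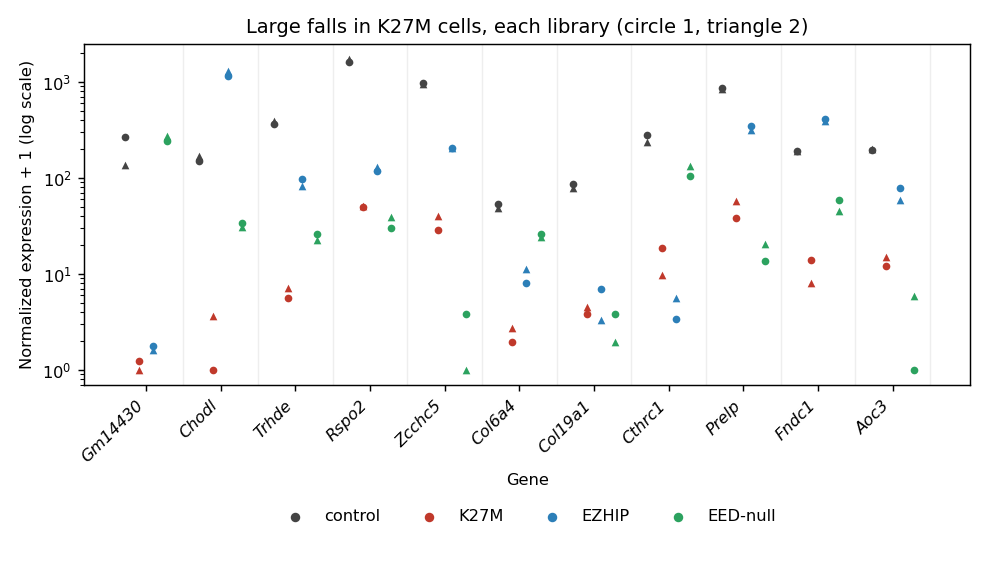
Normalized expression + 1 (y axis, log scale) of 11 genes with large falls in K27M against control cells (x axis), 1 point per library, circle for library 1 and triangle for library 2, coloured by group. K27M points lie below the control points for every gene, and *Chodl* and *Fndc1* are higher in EZHIP than in control cells.

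In absolute level, *Marcks* stood beside *Col3a1*, *Nov*, *Ptn* and *Nid1* among the 5 largest falls. *Marcks* encodes a substrate of protein kinase C that binds actin and the plasma membrane. It fell from 6496 and 6538 to 989 and 794, by 2.88 on the log2 scale.

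Cell adhesion genes fell in 15 of 26 (57.7%, against 20.0% of all listed genes) and rose in 7 (26.9%, against 41.4%), and 12 of the 15 were gamma protocadherins, cadherin-related proteins encoded in 1 gene cluster. All 12 listed gamma protocadherins were called lower, with a median log2 difference of -2.36. The largest of these falls were *Pcdhga8*, from 75.6 and 109 to 7.10 and 13.0, and *Pcdhgb5*, from 93.0 and 82.1 to 13.1 and 9.30. They share 3′ exons, so reads can be split between them and the 12 are not separate measurements. The 57.7% therefore rests mostly on this cluster. Outside it only *Fat4*, *Itga11* and *Itga1* of the adhesion list were called lower. Their summed level was 1478 and 1602 in control and 312 and 378 in K27M cells. All 12 were lower than in EED-null cells, against 26.6% of all listed genes. Only 2 were lower than in EZHIP cells, where the share of all listed genes was 26.2%. *Fat4*, a giant cadherin, fell from 2371 and 2352 to 335 and 412. The rises included *Cadm4*, from 20.5 and 24.4 to 348 and 391, and *Nfasc*, the cell adhesion protein neurofascin, from 0 and 0.738 to 17.6 and 27.1.

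Genes of sterol synthesis fell together. In a list of 23 drawn up after the values were seen, 4 were in the table. All 4 were called lower, against 20.0% of all listed genes, with a median of -1.95. *Insig1*, which restrains sterol synthesis in the endoplasmic reticulum, fell from 4746 and 4846 to 1119 and 1063. The enzymes *Lss*, *Sc5d* and *Cyp51* were 3.69-fold, 4.05-fold and 2.91-fold lower. *Sc5d* lies on chromosome 9, where 46.6% of the listed genes were called lower. *Cyp51* was at 13141 and 13707 in EZHIP cells, above the control values of 5397 and 5532, while K27M cells were at 1839 and 1912. Over the 4 genes, however, the median against control was -1.07 in EZHIP and -0.61 in EED-null cells. K27M was below EZHIP in 2 of the 4 and below EED-null in 3, against 26.2% and 26.6% of all listed genes.

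Retinoid genes moved mostly upward, in 5 of 6 listed from 16 chosen after the values were seen, or 3 of 6 with rescaled libraries. Of all listed genes 41.4% were called higher on the deposited scale. *Aldh1a1*, a dehydrogenase that makes retinoic acid (chr19:20676451-20717952, plus strand), rose from 6.16 and 5.17 to 722 and 750, which was 130-fold. It was at 13.0 and 27.4 in EZHIP and at 1.39 and 5.95 in EED-null cells. *Dhrs9*, a retinol dehydrogenase, rose from 4.11 and 4.43 to 149 and 158. *Crabp1*, which binds retinoic acid in the cytoplasm, fell from 465 and 467 to 45.4 and 54.2, and it was at 2344 and 2217 in EZHIP cells. *Crabp1* lies on chromosome 9 too.

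Genes of membrane transport did not move one way. Of 19 ion channels and channel receptors 7 rose (36.8%, against 41.4% of all listed genes) and 5 fell (26.3%, against 20.0%). Their median was 0.02 against 0.58 over all listed genes. Large differences were found in *Cacnb2*, a calcium channel subunit, from 1.03 and 2.95 to 50.1 and 54.2, *Kcna1*, a potassium channel, from 2.05 and 0 to 20.4 and 12.2, and *Ano5*, from 0 and 0 to 6.49 and 9.62. Of 17 solute carriers and pumps 7 rose (41.2%, the share over all listed genes being 41.4%) and 2 fell (11.8%, against 20.0%). *Slco5a1*, an organic anion transporter, rose from 5.13 and 2.95 to 154 and 142, and *Abca1*, which exports cholesterol, from 52.4 and 42.8 to 480 and 482. *Slc22a23* rose 10.1-fold. Of 5 synaptic and neuronal genes, *Syt7* and *Syt12*, from the synaptotagmin family of membrane-fusion proteins, rose and *Stmn2* fell. *Syt12* was at 25.7 and 25.8 in control and 57.5 and 70.8 in K27M cells, and with rescaled libraries it was no longer called. *Syt7* went from 3.08 and 2.95 to 64.0 and 72.6, while *Syt13* and *Shank1* were not called.

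Of 7 listed imprinted genes, which are expressed from 1 parental copy, *Peg3* rose from 424 and 482 to 2056 and 2402 and *Asb4* fell from 320 and 336 to 93.7 and 91.8. The other 5 were not called on the deposited scale, and with rescaled libraries 5 of the 7 were called lower. Of the Polycomb and H3.3 list 2 of 33 genes were in the table. *Pcgf5*, a subunit of Polycomb repressive complex 1, rose from 82.1 and 65.7 to 322 and 309. *Phf19*, an accessory subunit of PRC2, was at 311 and 275 in control and at 339 and 327 in K27M cells and was not called.

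The cell cycle list had 4 genes in the table. *Cdkn1a*, which encodes the CDK inhibitor p21, rose from 336 and 337 to 1141 and 1047, and *Ccnd2*, a D-type cyclin, from 529 and 443 to 1821 and 2204. *Ccnd1* and *Cdk6* were at 426 and 447 and at 154 and 188 in control cells. They were at 594 and 703 and at 172 and 190 in K27M cells and were not called, and both were lower than in EZHIP cells. The contractile genes *Mylk*, which encodes myosin light chain kinase, and *Myh14*, a non-muscle myosin, both rose, 6.17-fold and 3.40-fold.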

How the data were processed

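RNA of MEFs was sequenced after removal of ribosomal RNA, in 2 libraries each of control, K27M, EZHIP and EED-null cells. The authors aligned reads to the mm9 transcriptome, estimated reads per gene by RSEM (version 1.2.4, per the labels' processing notes) and tested them with EBSeq. The deposited signal is the estimated read number divided by 1 size factor per library. RNA of another cell line was spiked in, and whether it set the size factors is not given in the sources used here. The authors' fold changes and probabilities, also in the table, were not used.

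Conditions and replicate numbers came from the labels. Expression was tested with limma 3.58.1 (R 4.3.3) on log2(value + 1), fitting the 4 group means to all 8 libraries at once so that they shared 1 estimate of the spread. Benjamini-Hochberg adjustment ran over the 875 genes, and a gene was called at an adjusted p under 0.05 and at least 2-fold. Contrasts with EZHIP and EED-null cells came from the same fit. Tested on simulated data with 875 genes, K27M against control recovered 197 of 200 changed genes with 1 false call. The simulated noise was normal with limma's own spread, all changes lay well beyond the 2-fold limit, and low genes set to fall were first raised. The test therefore checks that the fit runs as meant and does not measure the error rate of the real calls. Within each library all values were multiples of 0.01 of the value of 1 read, and 72.2% to 82.5% were whole reads, so no count model was fitted. The listed genes held 209390 to 424561 reads per library, with a median of 92 to 170 per gene. The total depth is not known from a selected list. Folds against a group at 0 used a floor of 3 reads per library.

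Named genes are the 12 largest rises and falls on the log2 scale, the 5 largest in mean, and up to 4 called members per gene list (all members of lists of 5 or fewer). Results for a few genes are not reported here. Others were named after their values were seen. The members and lists were chosen with earlier results of these data known, and the lists of mesothelium, epithelial, immediate early, sterol, retinoid and gamma protocadherin genes with the K27M values known. Gene positions came from GENCODE vM1 on mm9 (850 genes had 1 locus), and promoters from RefSeq on GRCm38.p6. Tables and figures were made with Python 3.11.15 (numpy 2.4.6, pandas 2.3.3, scipy 1.17.1, matplotlib 3.10.9). The alternatives were pseudocounts of 0.1 and 5, a mean of at least 5, rescaled libraries, a replicate block, only the 2 groups compared, a trend on mean expression, the adjusted p alone, and each of 8 libraries left out.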

Additional observations from a re-analysis of the deposited data

How the results depend on the processing

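Genes called higher or lower in K27M cells numbered 359 and 171 with a pseudocount of 0.1, 350 and 168 with 5, 362 and 174 with a mean of at least 5, 362 and 176 with only the 2 groups compared, 367 and 177 with a trend, and 450 and 245 by the adjusted p alone. Leaving out each library gave 346 to 362 higher and 166 to 176 lower. No named difference that was called changed sign under an alternative. Same-numbered libraries did not deviate together (correlation of K27M with control 0.023, with EZHIP -0.089 and with EED-null 0.046). No shared effect of the replicate number was seen, but the values cannot tell whether same-numbered libraries were made together. With a replicate block 363 genes were higher and 173 lower.

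Counts over gene lists that moved by more than 1.5 times were few. Rescaling on the listed genes gave 5 Wnt genes higher, and 7 Hedgehog and Notch genes and 2 chemokine, cytokine and complement genes lower. The adjusted p alone gave 8 matrix proteases higher, 8 Hedgehog and Notch genes lower and 3 chemokine genes lower. A pseudocount of 5 left 3 ion channels lower. The solute carriers called lower went from 2 to 1 with a pseudocount of 0.1, a mean of at least 5 or the replicate block, and ranged from 1 to 2 as libraries were left out, with *Slc6a2* the call lost without control 2, either K27M or either EED-null library. Interferon genes called lower ranged from 0 to 1 as libraries were left out. Apart from the rescaling, which lowers the K27M differences of expressed genes, and the adjusted p alone, which drops the fold limit, the cause was not tested. Where a group held at most 3 reads of a gene, counting error leaves its fold imprecise, and 2 libraries a group limit the precision of every difference.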

Other observations

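Chromosome 9 had the highest share of listed genes called lower in K27M cells, as seen after the values were known. Of 58 listed genes there, 27 (46.6%) were called lower and 10 higher, against 20.0% and 41.4% over all listed genes, and their median log2 difference was -0.90 against 0.58. The next highest share called lower was 38.2%, on chromosome 3 (13 of 34 genes). In EED-null cells, against the same control libraries, chromosome 9 had a median of -0.72, and the next lowest was -0.37 on chromosome 16. In EZHIP cells, whose values chose the genes, the median of -1.13 on chromosome 9 was not the lowest, with -1.28 on chromosome 3, -1.15 on chromosome 16 and -1.13 on X. Whether the lines carry the same number of copies of chromosome 9 was not tested, and it limits what the values of its genes mean. The genes that were lower include *Sc5d* and *Crabp1*, described above, as well as *Aplp2*, *Rbms3* and *Cspg4*. *Aplp2*, a relative of the amyloid precursor protein, had a mean of 5360 in control and 1722 in K27M cells. *Rbms3*, an RNA-binding protein, had 1638 and 654, and *Cspg4*, the proteoglycan NG2, had 1208 and 451. A group of metalloproteinase genes on the same chromosome, *Mmp3*, *Mmp10*, *Mmp12* and *Mmp13*, was higher.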
